A study of Mus musculus with 12 samples.

Results

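The regions described here were among the strongest binding sites of FoxP3 carrying the substitution A384T and not among those of wild-type (WT) FoxP3. They number 285 of 3291 regions in all. FoxP3 ChIP-seq was done on 3 libraries of WT and 3 libraries of A384T regulatory T (Treg) cells. The cells were CD4+ and hCD2+, came from lymph nodes and spleen of untreated C57BL/6J mice, and were used freshly isolated. The groups are FoxP3WT:hCD2 and FoxP3A384T:hCD2 mice, so both carry the human CD2 reporter by which the cells were sorted magnetically. The antibody was an affinity-purified rabbit polyclonal made in house. The sources used here do not give the age or sex of the animals or say whether replicates came from separate mice, so the spread between libraries may be technical.

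FoxP3 is the transcription factor that defines Treg cells, which restrain immune responses. It binds DNA through a forkhead domain near its carboxyl end and acts at enhancers and promoters together with other factors. The substituted residue lies in that domain, and A384T is among the substitutions found in patients with IPEX, the autoimmune syndrome caused by loss of FoxP3 function. The comparison asks which sites rank among the strongest for the substituted protein and not for the wild-type protein.

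Each library's peak list was shortened to its 1600 autosomal peaks of highest pileup, the number of ChIP fragments over the summit, and these are called the strong lists. A region is a set of overlapping peaks of different strong lists. A strong peak in no WT library but in 2 or all 3 of the A384T libraries defined the 285, or 8.66% of the 3291 regions. All 6 libraries' pileups chose them, so counts and levels by genotype below are a description and carry no test. The same rule with the genotypes exchanged gave 316 regions, 9.6% of all, called the WT counterpart below. At this limit the class was thus no larger for A384T than for WT. Both sizes depend on the equal length set for all lists, so nothing about the genotypes is read from them.

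The strong lists are not equally deep. The limit of 1600 kept 7.91% of the autosomal peaks of WT replicate 1 (51 bp tags), 95.8% of WT replicate 2 and 42.6% of WT replicate 3 (49 bp tags). It kept 9.02%, 24.7% and 78.9% of those of A384T replicates 1, 2 and 3, with 51 bp tags in replicate 1 and 49 bp in the others. The last pileup kept was 113, 26.4 and 42 in WT and 111, 60.6 and 33 in A384T. Unique ChIP tags ranged from 17520951 to 25386770 per library, and pileup was not scaled between libraries by the authors, so levels are also given as scaled pileup, the pileup per 1000000 tags. Sequences, genes and motifs of the regions were not analysed here, and the sorted cells could not be checked at marker genes.

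The word "only" does not hold for these regions once the full lists are read. Of the 285, 266 (93.3%, exact 95% interval 89.8 to 95.9%) had a peak in the full list of WT replicate 1. The full list of WT replicate 3 held 45 of them (15.8%, 11.8 to 20.6%) and that of WT replicate 2 held 1 (0.351%, 0.00888 to 1.94%). Among all 1457 regions strong in at least 2 A384T libraries the shares were 98.7% for WT replicate 1, 74.5% for WT replicate 3 and 57.5% for WT replicate 2. The intervals cover counting error only. For 222 of the 285 the WT evidence was a peak in replicate 1 alone, 43 had a peak in 2 WT libraries and 1 had a peak in all 3. The last was chr9:94592235-94592497, with pileups of 69, 24.6 and 34 in WT replicates 1 to 3 and 77, 71 and 40 in A384T. At chr17:84108838-84109073 the sole WT peak was in replicate 3, where its pileup of 34 lay beside 34, 71.95 and 35 in A384T.

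The rule already asks for 2 A384T peaks. In the full lists A384T replicate 1 held all 285, replicate 2 held 275 (96.5%) and replicate 3 held 242 (84.9%), and 232 regions had a peak in all 3. Among the 1457 regions strong in at least 2 A384T libraries the shares were 100%, 99.04% and 92.3%, so the class lay below them in replicates 2 and 3. By strong lists, 101 regions were in all 3 A384T libraries (3.07% of all regions, against 2.95% for the 97 WT counterparts). A further 81 were in replicates 1 and 3, 56 in replicates 2 and 3, and 47 in replicates 1 and 2. Without A384T replicate 1, 158 regions met the rule, without replicate 2 there were 182 and without replicate 3 there were 148. Without WT replicate 1 the count was 459 and that in all 3 A384T libraries was 203. With an A384T library left out the rule asks for 2 of 2 libraries, and these counts do not follow the same rule as 285.

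The strongest of the 285 regions was chr11:51813735-51814472 (mm9, as are all positions here). Its pileup was 274, 189 and 149 in A384T replicates 1, 2 and 3, and it was 107 in WT replicate 1 with no peak in WT replicates 2 and 3. The scaled pileup of the A384T libraries averaged 10.01 ± 4.56 (SD, n = 3), with 6.08 in the lowest of them and 6.11 in WT replicate 1. The A384T libraries thus differed among themselves by more than the lowest differed from WT replicate 1, as they did at each of the 12 leading regions.

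The region chr7:4691359-4691886 had pileups of 264, 164 and 98 in A384T replicates 1 to 3 and 91 in WT replicate 1. At chr5:34529657-34530899 the A384T pileups were 234, 139 and 89 against 58 in WT replicate 1. Neither had a peak in WT replicates 2 or 3. In the WT replicate 1 list the former stood at rank 2791 and the latter at rank 7442 of 20218, so the same place among A384T regions went with very different places in WT.

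Close behind were chr2:32306816-32307171 with pileups of 250, 115 and 70 in A384T replicates 1 to 3 and 95 in WT replicate 1, and chr1:93146608-93146980 with 211, 126 and 68 and 91. The region chr17:45570341-45571122 had 196, 125 and 66 and 78. In these 3 regions the pileup of A384T replicate 3 lay below that of WT replicate 1, scaled or not, and that of A384T replicate 1 lay above it. The pileup of A384T replicate 2 was above as well, except that at chr2:32306816-32307171 its scaled value was 5.40 against 5.42 in WT replicate 1. None of the 3 had a peak in WT replicate 2 or 3.

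At chr4:46520949-46521266 the A384T pileups were 182, 109.8 and 87 and that of WT replicate 1 was 88. At chr6:83725665-83726429 they were 177, 129.7 and 62 against 99. The region chr4:98103249-98103727 had 151, 139 and 78 in A384T and was the only one of the 12 with a second WT peak, at 101 in WT replicate 1 and 42 in WT replicate 3.

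The last 3 of the 12 were chr1:113760545-113760835, chr4:133843013-133843497 and chr10:98723853-98724797. In A384T replicates 1 to 3 their pileups were 174, 88.04 and 81, then 209, 95.6 and 56, then 186, 95.6 and 60. WT replicate 1 had 53, 69 and 101. The first of these had the faintest WT peak of the 12, at rank 8527, while its 3 A384T pileups all exceeded it.

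**Figure D1:**
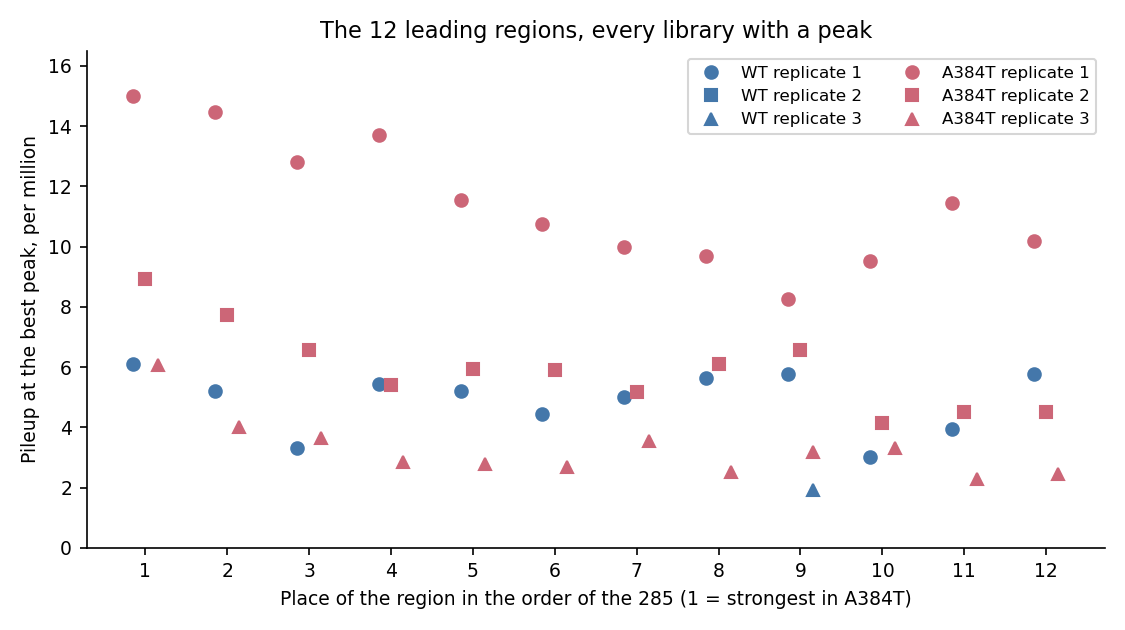
Scaled pileup (per 1000000 tags, y axis) at the best peak of the 12 leading regions in their order of strength (x axis); red is A384T, blue is WT, and the marker gives the replicate, with no point where a library had no peak. A384T replicate 1 is highest at every region, from 15.01 at the first, and WT appears almost only as replicate 1, between 3.02 and 6.11.

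The WT peaks at the 285 regions were mostly peaks of WT replicate 1 past its strong list but in the upper part of its full list. Their median pileup there was 87, where the list ends at 18. Their ranks there ran from 1607 to 18822 with a median of 3103, which is 15.3% of the way down the list. Of the 266, 56 ranked between 1601 and 2000, 120 between 2001 and 4000, 66 between 4001 and 8000, and 24 lower. In WT replicate 3 the 45 peaks had a median rank of 2205, or 58.8% of the way down its shorter list. The absence of a peak in WT replicate 2 reads differently, since its whole autosomal list holds 1670 peaks and only 70 lie outside the strong list.

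**Figure D2:**
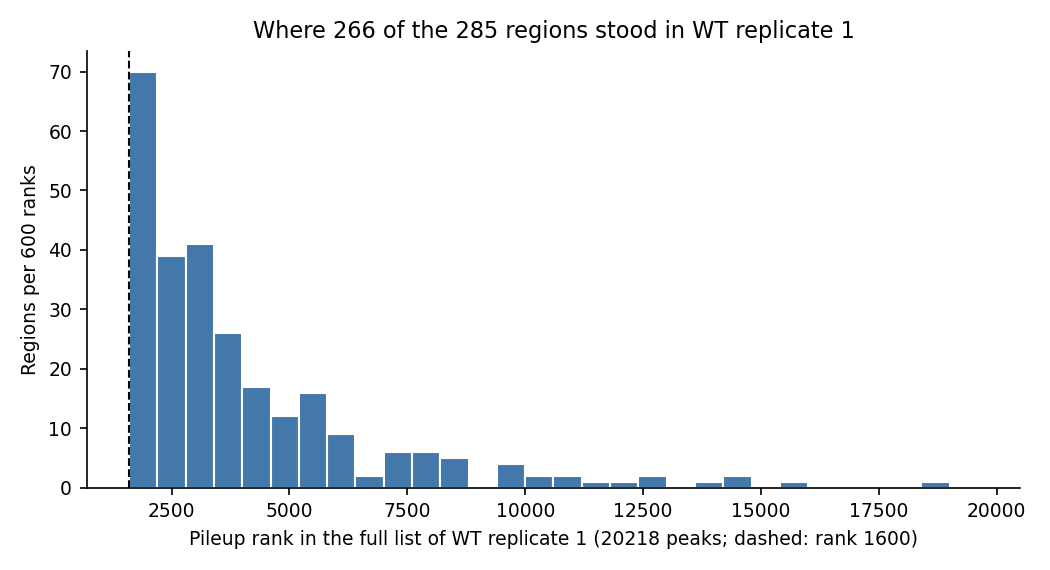
Histogram of the pileup rank (x axis) that 266 of the 285 regions had in the full list of WT replicate 1, in bins of 600 ranks (y axis, regions per bin), with a dashed line at rank 1600. The counts are highest just past the line and thin out to rank 18822.

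Several regions stood at the limit itself. The best WT ranks were 1607 at chr8:109817144-109817417, 1609 at chr2:29475053-29475331 and 1610 at chr9:120842284-120842759. The next were 1619 at chr11:69394560-69395175 and 1621 at chr4:98103249-98103727. At 6 of the 285 the WT pileup equalled that of the last peak kept, so the order by position among ties decided. On the A384T side, chr14:53576217-53576519 entered with a second-best A384T rank of 1599, and chr2:29984405-29984601 and chr14:26513408-26513814 with 1598 each. Just outside were chr16:35770306-35770636 at 1601, chr2:44782439-44783137 at 1613 and chr6:122709020-122709273 at 1614. Inside and outside the limit the pileups were alike, with 33 in A384T replicate 3 at chr14:26513408-26513814, chr16:35770306-35770636 and chr2:44782439-44783137.

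Replicate 1 of each genotype had 51 bp tags and a similar number of unique tags, 17520951 in WT and 18255500 in A384T, so their scaled pileups are set side by side. At the 266 regions with both peaks A384T replicate 1 was a median 1.5 times as high as WT replicate 1 (log2 difference 0.59, quartiles 0.35 and 0.86). The ratio was above 1 at 253 of them and at least 2 at 52 (19.5%). Over all 3192 regions with both peaks the median log2 difference was -0.21, with 36.6% above 1 and 2.98% at least 2. These are 2 libraries and the rule used both, so nothing is read from the gap between the shares.

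At 13 regions WT replicate 1 was level with or above A384T replicate 1. The lowest ratio was 0.626, at chr10:62694499-62694763, where WT replicate 1 had a pileup of 92 and A384T replicate 1 of 60. That region was a member through A384T replicates 2 and 3, with pileups of 67.2 and 37, and it also had 32 in WT replicate 3. At chr6:38302091-38302579 the pileups were 71 in WT replicate 1 and 49, 64.4 and 34 in A384T replicates 1 to 3. Both regions were strong in the A384T libraries with 49 bp tags and not in the one with 51 bp tags.

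**Figure D3:**
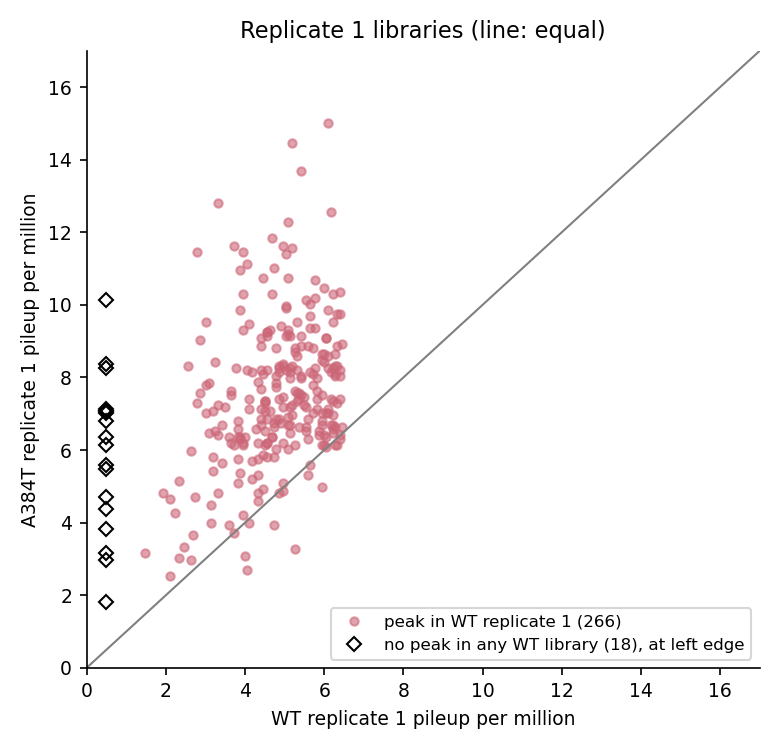
Scaled pileup (per 1000000 tags) in A384T replicate 1 (y axis) against WT replicate 1 (x axis), 1 point per region, with a grey line at equal values. The 266 regions with both peaks are red and lie mostly above the line, none beyond 6.45 in WT, where the strong list begins; the 18 with no WT peak have no x value and are drawn as diamonds at the left edge.

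Most regions were thus places where both proteins gave a peak, and the summits lay together. Between A384T and WT replicate 1 the summits were a median 15 bp apart at the 266 regions (quartiles 6 and 31), and over 100 bp apart at 7 (2.63%). The distance between A384T replicates 1 and 2 at the same class was also a median 15 bp (n = 275, quartiles 8 and 26), and over 100 bp at 3 (1.09%). Over all 3192 regions the WT to A384T distance had a median of 16 bp, with 5.23% over 100 bp. The farthest pair was at chr4:83131643-83132817, 786 bp apart, followed by chr4:46208784-46209503 at 258 bp. Summit position did not enter the rule. Where both genotypes had a peak, the summits of the 2 genotypes lay no farther apart by the median than those of 2 A384T replicates. The upper quartile and the share over 100 bp were larger between genotypes. The pairs are not alike, since both replicate 1 libraries had 51 bp tags and A384T replicate 2 had 49 bp tags.

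Peaks at the 285 regions were of moderate width. In A384T replicates 1, 2 and 3 their median width was 413, 236 and 164.5 bp, against 451, 316 and 190 bp for the whole strong lists. At the 447 regions strong in all 6 libraries the medians were 489, 366 and 243 bp. The pileups ordered the same way, with medians of 132, 66.3 and 42 at the 285 regions against 156, 106 and 60 at the 447. The medians at the 285 regions were taken over the best peak in each full list, at 285, 275 and 242 regions in A384T replicates 1 to 3. Of the 285, 229, 204 and 238 were strong in these libraries, so peaks outside the strong lists enter the medians. The median ranks in the full lists were 906, 1273 and 979.5.

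The control signal under the A384T peaks was close to that of the strong lists. It was derived from the authors' fold enrichment and has the unit of the pileup. At the 285 regions it was again taken at the best peak of each full list. Its median there was 4.58, 3.37 and 2.97 in A384T replicates 1 to 3, against 4.58, 3.24 and 3.17 over the strong lists. At the 266 WT replicate 1 peaks it was 5.23, against 4.42 over that library's strong list. The authors' fold over control had medians of 25.6, 15.7 and 10.4 at the regions in A384T replicates 1 to 3, and of 13.7 at the peaks of WT replicate 1. Over the strong lists the medians were 25.6, 18.6 and 11.1 in A384T and 27.8 in WT replicate 1. The rule bars these WT peaks from the strong list, so no contrast of genotypes is read from the fold.

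The order of the regions was weakly shared among A384T libraries. Over the 232 regions with a peak in all 3 full A384T lists, Spearman's rho of the pileups was 0.548 between replicates 2 and 3, 0.272 between replicates 1 and 3, and 0.19 between replicates 1 and 2. Of the A384T replicates, those with 49 bp tags were most alike. Between A384T replicate 1 and WT replicate 1, both with 51 bp tags, rho was 0.309 over the 266 regions with both peaks. That was above the values of A384T replicate 1 with the other A384T replicates, on a different set of regions. These correlations are across regions of the same libraries and the pileup was used to choose the regions, so they only describe the class.

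To see how the class carries over to libraries that did not choose it, regions were chosen by the same rule in 4 libraries and looked up in the same-numbered A384T and WT libraries left out. With replicate 1 left out, 271 regions were strong in both other A384T libraries and neither WT library. Of these, 76.4% (exact 95% interval 70.9 to 81.3%) were strong in A384T replicate 1 and 41.7% (35.8 to 47.8%) in WT replicate 1. Regions strong in 1 A384T and 1 WT library of the same 4 serve as the background, and 25.8% of those 186 were strong in A384T replicate 1 and 48.4% in WT replicate 1. The A384T share was thus above its background, and the WT share below its own by a smaller amount. The background holds only 1 A384T list and 1 WT list, so its lower A384T share and higher WT share may be built in. Of the 707 regions strong in both A384T and both WT libraries of the 4, 65.9% were strong in A384T replicate 1. In WT replicate 1 89.0% of these 707 were strong.

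With replicate 2 left out, 185 regions were chosen, and 56.2% (48.7 to 63.5%) were strong in A384T replicate 2 against 1.62% (0.336 to 4.67%) in WT replicate 2. The background of 313 regions had 47.6% and 41.5%. With replicate 3 left out, 162 regions were chosen, and 69.1% (61.4 to 76.1%) were strong in A384T replicate 3 and 8.64% (4.81 to 14.1%) in WT replicate 3, where the background of 346 had 44.2% for each. In all 3 cases the left-out A384T library held more of the chosen regions than the left-out WT library. The gap to the background of 1 A384T and 1 WT list was wide for A384T replicates 1 and 3 and narrow for A384T replicate 2. For WT it was wide in replicates 2 and 3 and narrow in replicate 1. The background differs from the chosen regions in the A384T and WT lists required, so part of each gap may be built in. Regions strong in both A384T and both WT libraries used for the choice share the A384T lists required. Of those 567 with replicate 2 left out, 94.9% were strong in A384T replicate 2 and 81.5% in WT replicate 2. Of those 512 with replicate 3 left out, 93.6% were strong in A384T replicate 3 and 91.4% in WT replicate 3. The chosen regions lay below this set in A384T replicates 2 and 3, and above it in A384T replicate 1.

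The choice was also made with the genotypes exchanged. Of regions strong in both WT and neither A384T library of 4, 50% (n = 212), 68.1% (n = 235) and 69.9% (n = 166) were strong in WT replicates 1, 2 and 3 when left out, against the same backgrounds of 48.4%, 41.5% and 44.2%. For WT replicate 1 the share was near its background. In the left-out A384T libraries the shares were 3.30%, 30.6% and 13.3%, below the backgrounds of 25.8%, 47.6% and 44.2%. Here too the lists required differ between the chosen regions and the background, so part of each gap may be built in. Each lookup rests on 1 library per genotype and the 3 sets share libraries and regions, so no test was made, and the intervals treat regions as independent.

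**Figure D4:**
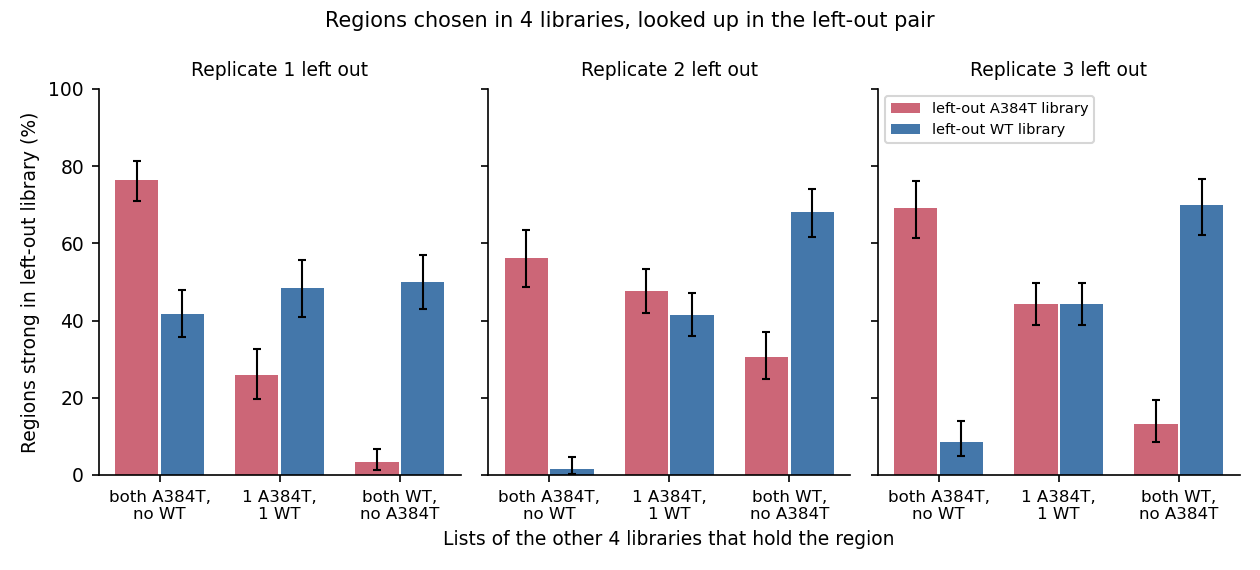
Percentage of regions strong in the left-out A384T (red) or WT (blue) library (y axis) by how the other 4 libraries held the region (x axis), in 1 panel per replicate left out; error bars are exact 95% binomial intervals. In each panel the red bar exceeds the blue at the left, most at replicate 3 left out (69.1 against 8.64%), and falls below it at the right.

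At 18 regions no full WT list had a peak. They are 6.32% of the 285 (exact 95% interval 3.79 to 9.80%) and 1.24% of all 1457 regions strong in at least 2 A384T libraries. Of the 316 WT counterparts 2 had no peak in any A384T list, 0.135% of the 1481 regions strong in at least 2 WT libraries. The full lists differ in length by library, and the count of 18 became 352 when WT replicate 1 was left out. It fell to 7 on leaving out A384T replicate 2 and to 8 on leaving out A384T replicate 3. All 18 had a peak in A384T replicates 1 and 2, and 15 in replicate 3. A region without a listed peak is one where nothing passed the authors' threshold, and the lowest autosomal pileups listed were 18, 20.2 and 19 in WT replicates 1, 2 and 3.

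The strongest of the 18 was chr9:61970335-61970967, with pileups of 153, 80.5 and 47 in A384T replicates 1 to 3 and its nearest WT peak 137 kb away. The scaled pileup averaged 4.70 ± 3.32 in A384T (SD, n = 3). Only 4 of the 18 lay within 5 kb of any WT peak. The median distance was 56.5 kb, raised by the 6 regions of chromosome 5 described below, which lay farthest.

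At chr7:17397923-17398160 the A384T pileups were 80, 90.9 and 79, or a scaled pileup of 3.96 ± 0.64 (SD, n = 3), the most even of the 10 leading regions without a WT peak for which all 3 values exist. At chr7:95377000-95377346 they were 58, 87.1 and 55. Both were strong in replicates 2 and 3 and not in replicate 1, whose strong list begins at 111. At chr10:126571668-126571932 the pileups were 102, 63.4 and 51, and a WT peak lay 0.432 kb away, so there the WT signal was listed beside the region and not in it.

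The other 2 of the 10 leading regions outside chromosome 5 had no peak in A384T replicate 3. The pileups of A384T replicates 1 and 2 were 185 and 86.2 at chr17:56464888-56465558 and 151 and 61.5 at chr2:155969790-155970080. The former was 34.003 kb and the latter 4.55 kb from the nearest WT peak. Apart from these, the strong lists of A384T replicates 2 and 3 held chr12:70452788-70452996, where replicate 1 had only 33 against 61.5 and 36.

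A row on chromosome 5 supplied 6 of the 18. In order along the chromosome they were chr5:94419256-94419702, chr5:94797822-94798148, chr5:95105433-95105999, chr5:95445550-95446258, chr5:95762855-95763488 and chr5:96085119-96085618. Their pileups in A384T replicate 1 were 124, 86, 129, 130, 112 and 128. In replicate 2 they were 88.04, 62.5, 62.5, 71.95, 53.96 and 84.3, and in replicate 3 they were 46, 41, 48, 45, 44 and 52. Within each library the 6 were of similar height, with 4 of them strong in all 3 libraries.

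The regions of the row were 307 to 378 kb apart. The nearest WT peak of any library was between 504 and 1409 kb away from them. For the rest of the 18 it was 0.432 to 147 kb away. The derived control signal under the row ranged from 2.16 to 3.82 in A384T replicate 1, and from 2.16 to 2.99991 in replicate 2. The medians of the whole class there were 4.58 and 3.37, so all 6 regions lay below them. In A384T replicate 3 the control signal under the row ranged from 2.195 to 4.96, around a class median of 2.97. A seventh member, chr5:96590435-96592329, followed the row and did have a WT peak, with a pileup of 112 in WT replicate 1 against 150 and 78.6 in A384T replicates 1 and 2. Whether the genomes of both mouse lines and mm9 match over this stretch was not tested, and a difference there would bear on 6 of the 18 regions without a WT peak.

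**Figure D5:**
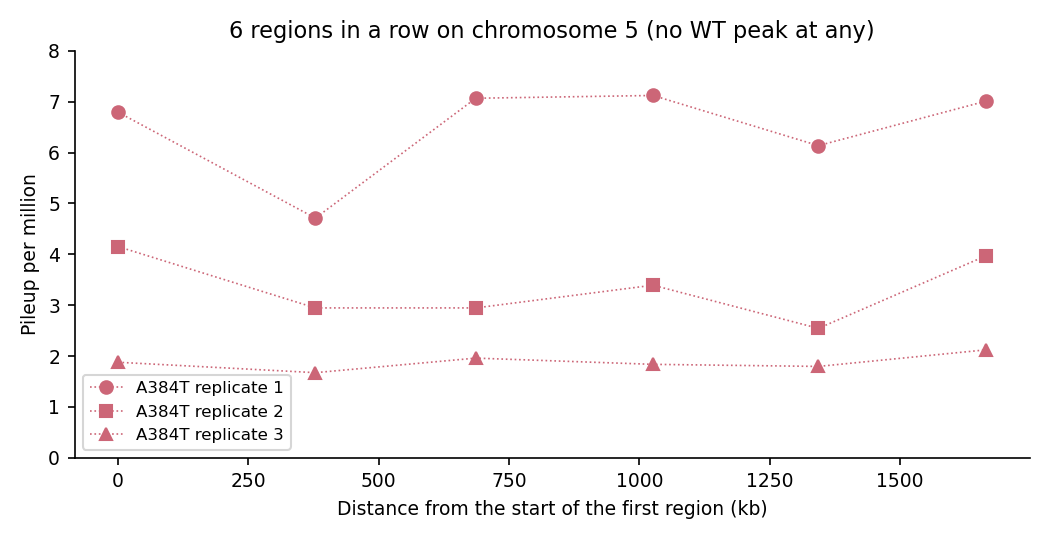
Scaled pileup (per 1000000 tags, y axis) at the 6 regions in a row on chromosome 5 by distance from the start of the first (x axis, kb), with 1 marker per A384T replicate. The values span 4.71 to 7.12 for replicate 1, 2.54 to 4.15 for replicate 2 and 1.67 to 2.12 for replicate 3, and no WT library had a peak at any of them.

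Elsewhere the 285 regions were scattered. Another region of the class lay within 1 Mb of 101 of them (35.4%), within 100 kb of 19 (6.67%) and within 10 kb of 6 (2.11%). Among the WT counterparts the shares were 55.4%, 31.3% and 8.86%. A strong WT region lay within 10 kb of 12.3% of the 285 and within 100 kb of 35.4%, where 29.1% and 65.2% of the WT counterparts had a strong A384T region that near. The 285 regions were thus the more solitary class in these lists, which was not tested.

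The group with the next most members after chromosome 5 was 5 regions over 374 kb on chromosome 2, chr2:31933239-32307171. It includes the close pair chr2:32303278-32303508 and chr2:32306816-32307171, 3308 bp apart, of which the latter is the fourth-strongest region of all. All 5 had a peak in WT replicate 1, with pileups there between 67 and 95. The other pairs within 10 kb were on chromosome 4, at chr4:120488264-120488711 and chr4:120498038-120498494, and on chromosome 11, at chr11:104303534-104304015 and chr11:104309975-104310193.

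By chromosome the class ranged from 4.79% of the 167 regions of chromosome 3 to 14.0% of the 186 of chromosome 4. Chromosome 17 followed with 12.4% and chromosome 10 with 11.3%. For the WT counterparts chromosome 4 had 6.99% and chromosome 3 had 10.8%. Chromosome 10 held the most members, 27, and chromosome 16 the fewest, 6. These shares are descriptions of 1 set of libraries with no test.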

How the data were processed

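FoxP3-bound DNA and input DNA were sequenced from WT and A384T Treg cells, with 3 libraries of each kind per genotype grouped by the sample titles; the 6 input libraries were not analysed here as samples. Bowtie2, MACS2 and the build mm9 are named in the submitters' processing notes, and the file headers name MACS 2.1.0.20140616, run once per library with 1 control and a q-value cutoff of 1e-10, keeping 1 tag per position. Replicates were not pooled, per the file headers. The deposited values per peak are the pileup (a signal, scaled down where the ChIP library was larger than its control), the −log10 of p-value and q-value, and the fold enrichment (a ratio over local control). A missing peak means that this cutoff was not passed.

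Peaks of the deposited lists on chromosomes 1 to 19 were ranked by pileup (ties by chromosome and start), the first 1600 kept, and peaks of different libraries overlapping by at least 1 bp joined. Scaled pileup is the pileup divided by the smaller of the ChIP and control tag totals, times 1000000. The control signal is (pileup + 1)/fold - 1. Regions were ordered by the number of A384T lists, then by mean pileup rank. Named are the first 12, the first 10 without a WT peak, the 5 of best WT rank and 3 on either side of the limit; any other region was picked with its values in view. The regions and rules themselves were chosen with earlier results of these data known. No genotype test was made, since pileup chose the regions. Intervals are exact Clopper-Pearson at 95%. Joining was tested on simulated lists of 4000 sites, where all 200 A384T regions and 150 WT regions were recovered. Strong and weak simulated peaks had pileups set far apart, and each list was cut at its known number of strong peaks. Recovery therefore checks the joining and counting steps alone and not the choice of regions near the limit. Alternatives were other list lengths, rankings, overlaps, thresholds and chromosomes, and each library left out. Planned gene, promoter and motif shares were not analysed here, because the gene table used is of another assembly. Python 3.11.15, numpy 2.4.6, pandas 2.3.3, scipy 1.17.1 and matplotlib 3.10.9 were used.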

Additional observations from a re-analysis of the deposited data

Results flagged for a closer look

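Chromosomes X and Y enter no comparison above. With the same pileup limits, 4 regions there were strong in at least 2 A384T libraries and in no WT library. All 4 lay on X, and the WT counterparts on both chromosomes numbered 9. WT replicate 2 stood apart on Y, with 29 peaks past its limit against 1 in WT replicate 3 and 0 in the other 4 libraries, and its part in the 9 was not tested. The highest in A384T replicate 1 was chrX:39696686-39697064, with pileups of 123, 71.95 and 35 in A384T replicates 1 to 3, 94 in WT replicate 1 and 25 in WT replicate 3. At chrX:34666637-34667167 the A384T pileups were 121, 84.3 and 61 against 77 in WT replicate 1. At chrX:70738864-70739186 they were 109, 88.99 and 61 against 58, and at chrX:17739361-17740096 they were 115, 45.4 and 39 against 48.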

How the results depend on the processing

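Of 71 values over 18 alternatives to 4 counts (the 285 regions, the 101 of them in all 3 A384T lists, the 18 without a WT peak and the 316 WT counterparts), 42 stayed within 1.5 times. Lists of 500 peaks gave 109, 45, 0 and 115, and lists of 1000 peaks gave 188, 66, 8 and 204. Of these regions 33 of 109 at 500 peaks and 108 of 188 at 1000 peaks were among the 285, as were 249 of 267 at 1500 peaks. Full lists gave 187 and 46 for the first pair of counts, and 18 of the 187 were among the 285. Ranking by fold raised the 18 to 31, and 143 of its 355 regions were among the 285. Leaving out each library gave 148 to 459, 104 to 203, 7 to 352 and 144 to 445. Chosen after the data were seen, WT lists of 3200 peaks against A384T lists of 1600 gave 127, 43 and, for the WT counterparts, 866. The 49 bp libraries alone gave 271 in all A384T lists, which are then 2, and 201 without a peak in the 2 WT lists. The causes were not tested, except that list length and the number of libraries required change by construction. No paired analysis was possible because the counts come from no test to which a replicate block could be added, and same-numbered libraries were set side by side only as a description. Other distances to genes and other motif windows were not run. Depth limits absence: WT replicate 2 lists 1670 autosomal peaks in all.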
